A study of Mus musculus with 4 samples.

Results

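Regulatory T (Treg) cells with no detected Ccr8 or Tnfrsf9 transcript were examined in single-cell RNA sequencing libraries of MC38b tumours grown in mice. A barcode belonged to this population if it held at least 2000 unique molecular identifiers (UMIs, one per captured transcript) from at least 500 genes, with under 10% mitochondrial UMIs. It also had to hold at least 2 UMIs of Cd3d, Cd3e and Cd3g together, at least 1 of Foxp3, none of Ccr8, Tnfrsf9, Cd8a or Cd8b1, under 3 of Mki67 and Top2a together, at most 2 of C1qa, C1qb and C1qc together and at most 2 of Lyz2. The rule found 162 cells among 37588 barcodes, of which 30637 passed the filters on UMIs, genes and mitochondrial share. There were 60 in the anti-PD-1 library, 47 in the combination library, 33 in PBS 1 and 22 in PBS 2. They are called Ccr8- Tnfrsf9- Treg cells here, where the minus sign stands for 0 UMIs and not for a shown absence of the transcript. Foxp3, Ccr8 and Tnfrsf9 chose the cells, so their levels are given as a description only.

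Foxp3 is the transcription factor that defines Treg cells, which restrain other T cells through the inhibitory receptor CTLA-4, through consumption of IL-2 by the high-affinity receptor chain CD25 (Il2ra) and through secreted factors such as IL-10. Resting Treg cells that recirculate through blood and lymph nodes express the egress receptor S1pr1 and its activator Klf2, and the transcription factors Tcf7 and Lef1. In tumours many Treg cells are activated through their antigen receptor and then carry the chemokine receptor CCR8 and the TNF receptor family members 4-1BB (Tnfrsf9), OX40 (Tnfrsf4) and GITR (Tnfrsf18).

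MC38 is a mouse colon carcinoma line, and the label MC38b is not explained further. Mice received anti-PD-1 (1 library), anti-PD-1 together with anti-TL1A (1 library, the combination) or saline (2 libraries, PBS 1 and PBS 2), and tumours were taken 24 h after dose 2. PD-1 dampens signalling in activated T cells, while TL1A is a TNF family cytokine that acts on the receptor DR3, the product of Tnfrsf25. Per the design text, 2 saline and 4 treated animals were processed and cell suspensions of replicates were pooled before sorting. CD45+CD3+, CD45+CD3- and CD45-CD3- cells were remixed at 9, 9 and 2 parts, and 20000 cells were loaded per condition. Strain, sex and age of the animals are not stated, nor whether a PBS library comes from 1 animal or from several. The spread behind the p-values may thus be technical in part or in full. It came from all 4 libraries in comparisons of gates. In comparisons of treatments, and of treatment differences between gates, it came from the PBS pair alone.

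Cells of the anti-PD-1 library were the shallowest. The whole libraries held 78648222 to 142600208 UMIs, with a median of 3588 UMIs per barcode in the anti-PD-1 library, 7098 in the combination library, 7798 in PBS 1 and 7645.5 in PBS 2. The Ccr8- Tnfrsf9- Treg cells had medians of 3293 UMIs in the anti-PD-1 library, 4623 in the combination library, 4702 in PBS 1 and 5759 in PBS 2. Their summed UMIs came to 214166 in the anti-PD-1, 268729 in the combination, 181367 in the PBS 1 and 116918 in the PBS 2 library. Of all barcodes, 2402 of the anti-PD-1, 74 of the combination, 1283 of the PBS 1 and 1805 of the PBS 2 library also occurred in another library. Of the 162 cells, 1 (in the combination library) carried such a barcode. No cell was removed as a doublet in the values below: Scrublet's automatic threshold marked at most 0.0297% of a library's barcodes, and the counts of calls and the shares without the cells of highest doublet score are given in the closing section.

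The label held against conventional CD4 T cells in Treg markers that the rule did not use. Il2ra, which encodes CD25, stood at 551, 275, 364 and 684 counts per 1000000 UMIs of the gate (CPM) in the Ccr8- Tnfrsf9- Treg cells of the anti-PD-1, combination, PBS 1 and PBS 2 libraries, against 25.1, 49.1, 30.6 and 49.9 CPM in conventional CD4 T cells of the same libraries. The conventional cells were gated in the same way but with Foxp3 at 0 and at least 1 Cd4 UMI (925 cells). Ikzf2, which encodes the Treg transcription factor Helios, stood at 2199, 2047, 1968 and 2446 CPM in the Ccr8- Tnfrsf9- Treg cells, against 353, 353, 147 and 202 CPM in the conventional cells. Tnfrsf4 stood at 686, 391, 524 and 462 CPM in the Ccr8- Tnfrsf9- Treg cells, against 210.5, 146, 101 and 124 CPM in the conventional cells. In each of these genes the lowest Treg value lay above the highest conventional value. Of the 162 cells, 154 (95.1%, exact 95% interval 90.5 to 97.8) held at least 1 UMI of Il2ra, Ikzf2 or Tnfrsf4, and 66 (40.7%) held all 3 genes. All 3 were found in 29 of 925 conventional cells (3.14%) and in 6 of 1539 C1q macrophages (0.39%), which should lack them. These macrophages were gated on at least 10 UMIs of C1qa, C1qb and C1qc together and none of the Cd3 genes. With every cell thinned to 2000 UMIs, Il2ra was detected in 43.8% of the Ccr8- Tnfrsf9- Treg cells, 4.65% of conventional cells and 0.975% of macrophages, against 56.8%, 8.32% and 5.26% at full depth. The 8 cells with none of the 3 genes rest on Foxp3 alone. The 3 markers are not confined to Treg cells. In 7694 CD8 T cells (at least 2 UMIs of Cd8a and Cd8b1 together), Il2ra was detected in 36.4%, Ikzf2 in 58.7% and Tnfrsf4 in 34.4%. The shares in the Ccr8- Tnfrsf9- Treg cells were 56.8%, 90.7% and 68.5%. The rule asked for no Cd4 UMI, and 77 of the 162 cells (47.5%) held one.

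Stray Foxp3 was looked for in the C1q macrophages, which should lack the gene. Their gate asked for 0 UMIs of the Cd3 genes, which leaves out barcodes with stray Cd3 RNA. Macrophage shares may therefore lie below the background in T cell barcodes. A Foxp3 UMI was found in 20 of 1539 C1q macrophages (1.30%), whose median depth was 10129 to 20607 UMIs per library, against 3293 to 5759 in the Ccr8- Tnfrsf9- Treg cells. It was found in 536 of 7694 CD8 T cells (6.97%), at median depths of 7233 to 11886.5 UMIs. Those 536 cells held 1729 Foxp3 UMIs, up to 14 in 1 cell, against 326 UMIs and up to 15 in the 162 Ccr8- Tnfrsf9- Treg cells, so the CD8 share is not read as background. A single Foxp3 UMI carried 82 of the 162 cells (50.6%), compared with 462 of 1559 Treg cells with Ccr8 or Tnfrsf9 (29.6%). Pooled over libraries, Il2ra was at 432 CPM in the 82 cells just inside the threshold with 1 Foxp3 UMI, at 433 CPM in the 80 cells with 2 or more, and at 40.7 CPM in the conventional cells just outside it. S1pr1 was at 266 CPM in the cells with 1 Foxp3 UMI, 149.98 CPM in those with 2 or more and 410.0 CPM in the conventional cells. The cells with 1 Foxp3 UMI thus had the Il2ra level of the other cells of the population and an S1pr1 level between theirs and that of conventional cells. Foxp3 itself was at 584, 316, 358 and 436 CPM in the Ccr8- Tnfrsf9- Treg cells of the anti-PD-1, combination, PBS 1 and PBS 2 libraries, against 584, 428, 467 and 505 CPM in Treg cells with Ccr8 or Tnfrsf9.

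**Figure D1:**
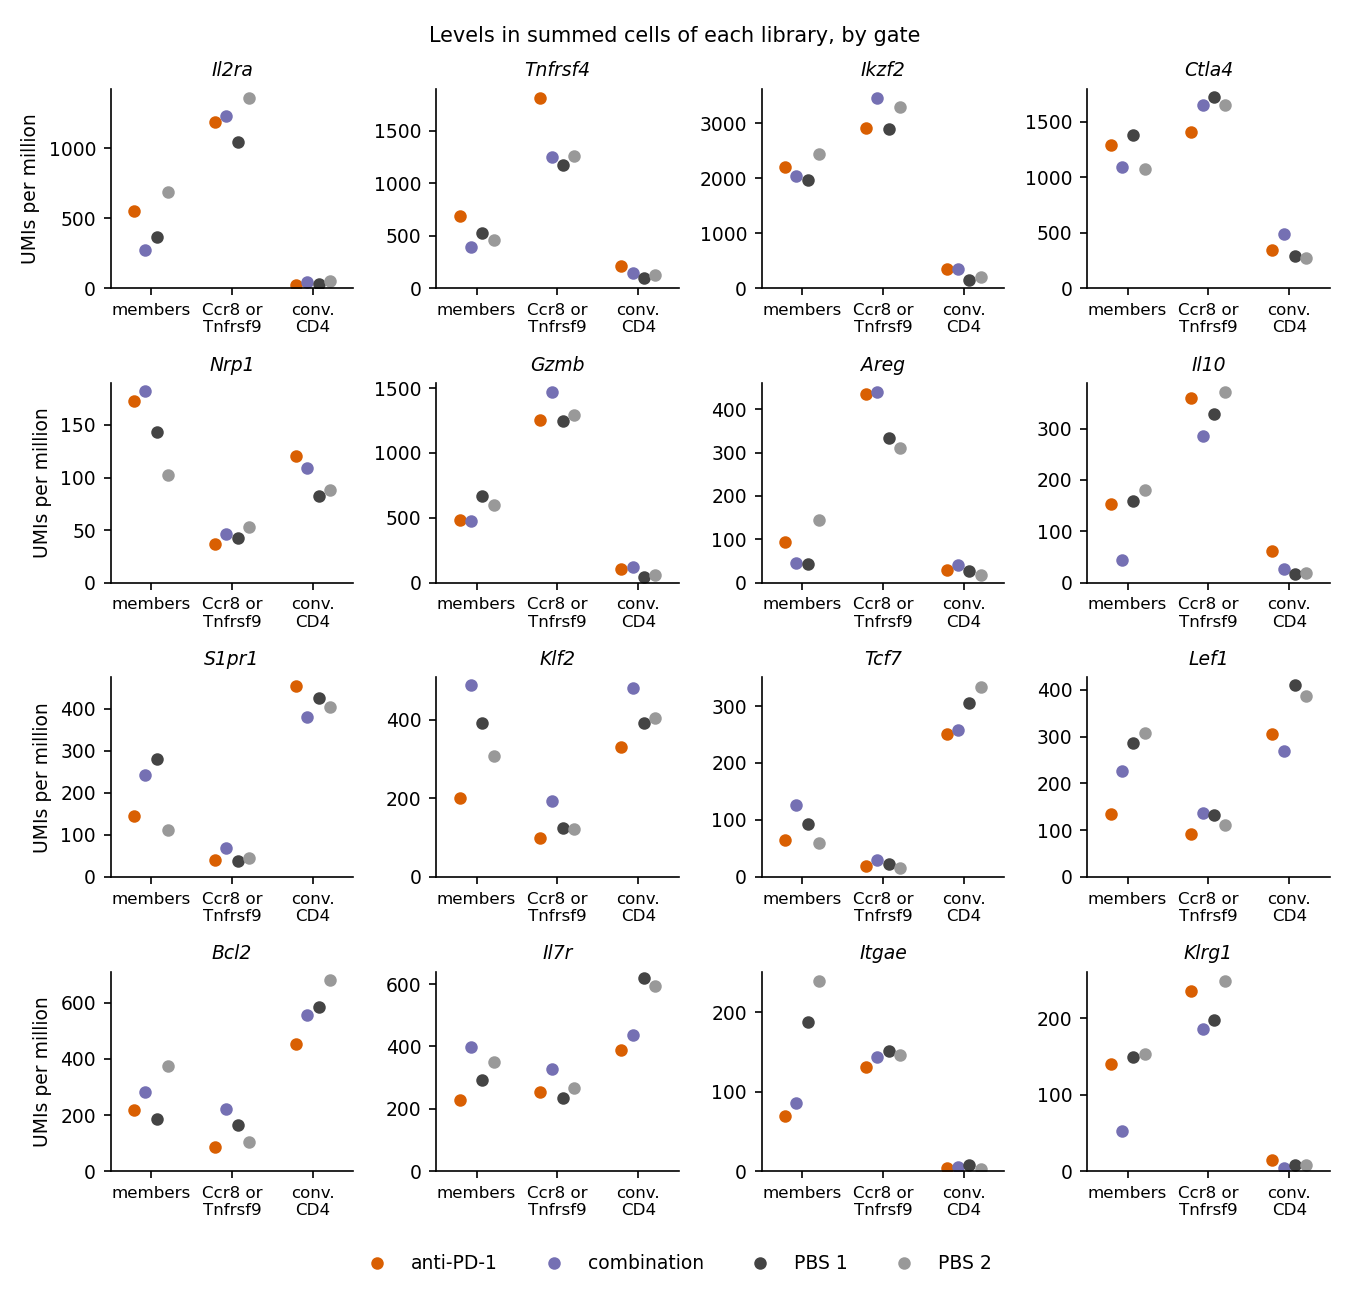
CPM (vertical axis, linear, from 0) of 16 genes in the summed cells of each library, for the Ccr8- Tnfrsf9- Treg cells ("members"), Treg cells with Ccr8 or Tnfrsf9 UMIs and conventional CD4 T cells (horizontal axis); each point is 1 library. Il2ra, Tnfrsf4 and Ikzf2 of the Ccr8- Tnfrsf9- Treg cells lie between the other gates, Tcf7 likewise, while S1pr1 ranges from 111 to 281 in them, above the 37.5 to 69.1 of the Ccr8 or Tnfrsf9 gate.

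Levels of several genes changed with the UMIs of Ccr8 and Tnfrsf9 in the cell, on both sides of the threshold. Over all libraries, 162 Treg cells held 0 UMIs of both genes together, 139 held 1, 135 held 2, 257 held 3 or 4 and 1028 held 5 or more. Il2ra stood at 433, 768, 794, 997 and 1342 CPM in these classes, from 0 UMIs upwards. Tnfrsf4 stood at 513, 967, 946, 1210 and 1486 CPM, and Ctla4 at 1212, 1339, 1304, 1521 and 1686 CPM. S1pr1 took the opposite course, with 205, 128, 67.9, 66.7 and 37.1 CPM, and Klf2 stood at 360, 173, 202, 144 and 128 CPM. Il2ra and S1pr1 kept their direction at each step, while Tnfrsf4, Ctla4 and Klf2 did not. For Tnfrsf4, Klf2 and S1pr1 the widest step in CPM lay at the threshold, between 0 and 1 UMI. On a ratio scale S1pr1 fell more between 1 and 2 UMIs, and Il2ra had its widest step at the threshold. At the other limits, 10 otherwise eligible cells held exactly 1 UMI of Cd8a and Cd8b1, 6 held exactly 1 of the Cd3 genes and 9 held 3 or more of Mki67 and Top2a. The classes by Ccr8 and Tnfrsf9 were made by the genes of the rule and by depth, and the values are a description with no test. The cells just inside (0 UMIs) and just outside (1 UMI) differed in the same direction as the whole gates did for Il2ra, Tnfrsf4, Klf2 and S1pr1.

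**Figure D2:**
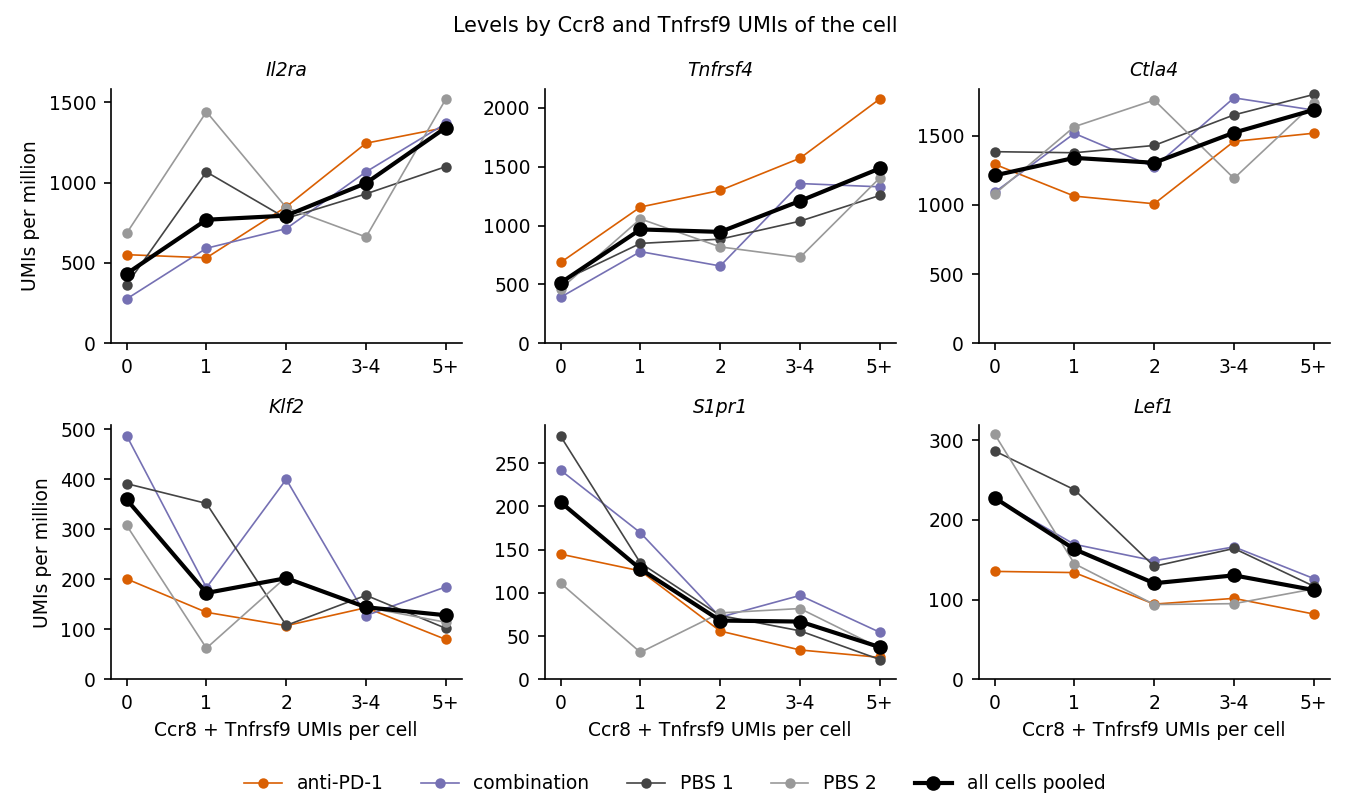
CPM (vertical axis) of 6 genes in gated Treg cells grouped by the UMIs of Ccr8 and Tnfrsf9 in the cell (horizontal axis), per library (thin lines) and pooled (thick line). In the pooled cells Il2ra goes from 433 at 0 UMIs up to 1342 at 5 or more and S1pr1 from 205 down to 37.1, while single libraries cross each other in between.

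The population was a minority of the gated Treg cells, and the order of its shares over the libraries changed with depth. The Ccr8- Tnfrsf9- cells made up 60 of 558 Treg cells in the anti-PD-1 library (10.8%, exact Clopper-Pearson 95% interval 8.31 to 13.6), 47 of 500 in the combination library (9.40%, 6.99 to 12.3), 33 of 336 in PBS 1 (9.82%, 6.86 to 13.5) and 22 of 327 in PBS 2 (6.73%, 4.26 to 10.0). All 4 intervals overlap, and they cover counting error only. The anti-PD-1 library lay 2.48 percentage points and the combination library 1.13 points above the mean of the PBS pair, whose SD was 2.19 points. With 1 library per treated group there is no test. When every cell was thinned to 2000 UMIs and gated again, the shares were 17.1% in the anti-PD-1, 17.6% in the combination, 18.1% in the PBS 1 and 21.4% in the PBS 2 library. At equal depth both treated libraries lay below both PBS libraries, with differences of -2.68 points for anti-PD-1 and -2.19 points for the combination from the PBS mean, and the intervals again overlapped. Without cells holding a C1q or Lyz2 UMI the combination difference was -1.03 points.

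**Figure D3:**
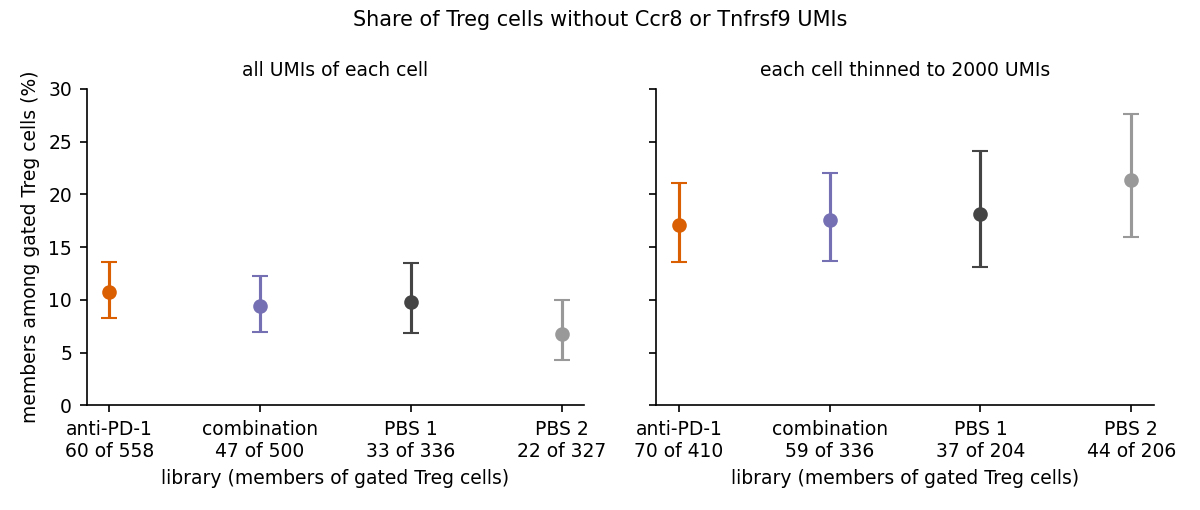
Share of Ccr8- Tnfrsf9- cells among gated Treg cells in percent (vertical axis) for each library (horizontal axis), with all UMIs (left) and with each cell thinned to 2000 UMIs (right); points are single libraries and bars are exact 95% binomial intervals. The bars overlap in both panels; the values lie between 6.73 and 10.8% on the left and between 17.1 and 21.4% on the right.

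The rest of the Treg compartment offered the closest comparison. UMIs were summed per library for the 162 Ccr8- Tnfrsf9- Treg cells and for the 1559 Treg cells with at least 1 UMI of Ccr8 or Tnfrsf9, and compared with edgeR's quasi-likelihood test with the library as block. The second gate held 498 cells in the anti-PD-1, 453 in the combination, 303 in the PBS 1 and 305 in the PBS 2 library. All genes of the rule were left out of the test, but every other gene was read in the same cells that the rule had split. Of 8468 genes tested, 423 (5%) passed an adjusted p of 0.05, 214 higher (2.53%) and 209 lower (2.47%) in the Ccr8- Tnfrsf9- Treg cells. Of the higher genes 197, and of the lower genes 203, lay on the same side in all 4 libraries, which also gave the calls. The count of calls fell to 121 with Foxp3 required at 2 UMIs or more, to 131 with cells thinned and gated again, to 217 without the combination library and to 267 without the anti-PD-1 library. It was 268 without cells that held at least 3 UMIs of neutrophil, B cell or CD45-negative markers, a setting chosen after seeing the data. Such cells made up 16.7%, 23.4%, 27.3% and 18.2% of the Ccr8- Tnfrsf9- Treg cells of the anti-PD-1, combination, PBS 1 and PBS 2 libraries. The shares were 10.2%, 19.2%, 15.5% and 16.7% in the Ccr8 or Tnfrsf9 Treg cells, lower in every library. In conventional CD4 T cells they were 9.55%, 19.6%, 22.4% and 28.4%.

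Most tested genes of resting and recirculating T cells rose in the Ccr8- Tnfrsf9- Treg cells. In a list of 23 such genes, 20 were tested, and 13 rose and 1 (Satb1) fell, with a median log2 fold change of 0.93 against 0.0028 over all genes tested. S1pr1 (chromosome 3, 115710433 to 115715072, minus strand, GRCm38), the sphingosine-1-phosphate receptor that T cells use to leave tissue, stood at 145, 242, 281 and 111 CPM in the Ccr8- Tnfrsf9- Treg cells of the anti-PD-1, combination, PBS 1 and PBS 2 libraries, against 40.6, 69.1, 37.5 and 44.7 CPM in the Ccr8 or Tnfrsf9 Treg cells. The gates did not overlap, and the log2 fold change was 2.06 ± 0.22 (SE, edgeR adjusted p = 1.06e-06). Klf2, the transcription factor that switches S1pr1 on, stood at 201, 487, 391 and 308 CPM in the Ccr8- Tnfrsf9- Treg cells, against 99.4, 192, 124 and 121 CPM in the other gate. Its log2 fold change was 1.40 ± 0.15 (edgeR adjusted p = 1.47e-06), and no values overlapped. Tcf7 stood at 65.4, 127, 93.7 and 59.9 CPM in the Ccr8- Tnfrsf9- Treg cells, against 19.2, 30.4, 22.6 and 16.5 CPM in the other gate, a log2 fold change of 2.00 ± 0.27 (edgeR adjusted p = 2.88e-05). Lef1, a partner of Tcf7, was higher by 1.01 ± 0.18 on the log2 scale, with 135, 227, 287 and 308 CPM in the Ccr8- Tnfrsf9- Treg cells and 92.1, 136, 132 and 111 CPM in the Ccr8 or Tnfrsf9 Treg cells. Here the anti-PD-1 value of the first gate lay just under the combination value of the second, although each library's own pair kept the order.

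Further members of that list moved the same way. Klf3, a relative of Klf2, rose by 2.04 ± 0.27 on the log2 scale, Bach2, a repressor of effector programmes, by 0.96 ± 0.14, and Bcl2, which protects cells from apoptosis, by 0.95 ± 0.23 (edgeR adjusted p = 1.68e-05, 3.83e-05 and 0.0248). Bcl2 changed by -0.35 with Foxp3 required at 2 UMIs or more, so its direction was not stable. Ccr7, a lymph node homing receptor, differed by -0.36 ± 0.35 (edgeR adjusted p = 0.745) and Il7r, the IL-7 receptor, by 0.25 ± 0.14 (edgeR adjusted p = 0.451), neither past the threshold. With Foxp3 required at 2 UMIs or more, 3 of the resting genes rose, and with cells thinned and gated again 5 did. The list's median lay between 0.42 and 1.04 over the 15 alternatives run. Per cell and at 2000 UMIs, the median number of UMIs of the resting list was 9, 13, 13 and 10.5 in the Ccr8- Tnfrsf9- Treg cells of the anti-PD-1, combination, PBS 1 and PBS 2 libraries, against 7, 10, 7 and 8 in the Ccr8 or Tnfrsf9 Treg cells.

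Of the Treg identity genes that passed, all but Nrp1 were lower in the population than in the Ccr8 or Tnfrsf9 Treg cells. Of 18 genes in that list 17 were tested, of which 8 fell and 1 rose, with a median of -0.55, and over the 15 alternatives 2 to 14 fell. Il2ra stood at 551, 275, 364 and 684 CPM in the Ccr8- Tnfrsf9- Treg cells of the anti-PD-1, combination, PBS 1 and PBS 2 libraries, against 1187, 1231, 1045 and 1355 CPM in the Ccr8 or Tnfrsf9 Treg cells. No value overlapped, and the log2 fold change was -1.39 ± 0.15 (edgeR adjusted p = 2.2e-05). Tnfrsf4 stood at 686, 391, 524 and 462 CPM against 1809, 1248, 1172 and 1260 CPM in the other gate, a change of -1.38 ± 0.11 (edgeR adjusted p = 1.12e-08). Tnfrsf18 was lower by 0.76 on the log2 scale and Icos, a costimulatory receptor, by 0.56, while Ikzf2 changed by -0.49 ± 0.08 and Ctla4 by -0.36 ± 0.10 (edgeR adjusted p = 0.000187 for Ikzf2 and 0.0231 for Ctla4). The gene that rose was Nrp1 (chromosome 8, 128358604 to 128503363, plus strand), the surface receptor neuropilin-1 that marks many Treg cells of thymic origin. It stood at 173, 182, 143 and 103 CPM in the Ccr8- Tnfrsf9- Treg cells, against 36.9, 46.2, 42.7 and 53.2 CPM in the Ccr8 or Tnfrsf9 Treg cells. No value overlapped, and the log2 fold change was 1.84 ± 0.22 (edgeR adjusted p = 5.05e-06). Conventional CD4 T cells held Nrp1 at 120.3, 109, 82.5 and 87.8 CPM, from which the population differed by 0.55 ± 0.19 on the log2 scale and did not pass (edgeR adjusted p = 0.0807). Macrophages held Nrp1 at 167, 191, 193 and 201 CPM in the same libraries, and a C1q or Lyz2 UMI was found in 44 of 162 Ccr8- Tnfrsf9- Treg cells (27.2%), against 352 of 1559 in the other gate (22.6%). The part of such RNA in the Nrp1 difference was not tested.

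Of 28 genes of effector Treg cells, all tested, 13 fell and 1 rose (Ccr4, a chemokine receptor), with a median of -0.59, and over the 15 alternatives 3 to 15 fell. Gzmb, the cytotoxic protease granzyme B, stood at 481, 476, 667 and 599 CPM in the Ccr8- Tnfrsf9- Treg cells of the anti-PD-1, combination, PBS 1 and PBS 2 libraries, against 1254, 1466, 1243 and 1288 CPM in the Ccr8 or Tnfrsf9 Treg cells. Il10 stood at 154, 44.7, 160 and 180 CPM in the Ccr8- Tnfrsf9- Treg cells, against 358, 286, 329 and 370 CPM in the other gate. Neither gene's gates overlapped, and the log2 fold changes were -1.22 ± 0.11 for Gzmb and -1.38 ± 0.20 for Il10 (edgeR adjusted p = 1.57e-07 and 9.77e-05). Klrg1, a receptor of terminally differentiated lymphocytes, was lower by 0.84 ± 0.20 on the log2 scale (edgeR adjusted p = 0.0102). Itgae, Prdm1, Batf, Entpd1 and Tigit of the panel did not pass, with log2 fold changes from -0.70 ± 0.22 (Tigit) to -0.08 ± 0.23 (Itgae).

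Of the genes listed for tissue repair, Areg had the largest change of the panel genes that passed. Areg, the growth factor amphiregulin that tissue Treg cells release, stood at 93.4, 44.7, 44.1 and 145 CPM in the Ccr8- Tnfrsf9- Treg cells of the anti-PD-1, combination, PBS 1 and PBS 2 libraries, against 434, 439, 333 and 311 CPM in the Ccr8 or Tnfrsf9 Treg cells. The log2 fold change was -2.33 ± 0.25 (edgeR adjusted p = 8.36e-06). Of 12 genes in the list 6 fell (Odc1, Areg, Il10, Penk, Klrg1 and Cd200r1) and none rose, with a median of -0.69, and over the 15 alternatives 3 to 7 fell. Il1rl1, the IL-33 receptor, was uneven, with 84.0 CPM in the anti-PD-1, 11.2 in the combination, 0 in the PBS 1 and 197 in the PBS 2 library. Its log2 fold change was 0.59 ± 0.96 (edgeR adjusted p = 0.881). The 0 UMIs in 33 PBS 1 cells allow a share of up to 9.09% of cells with a UMI.

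Metabolic, survival and stress genes moved in smaller numbers. Of 20 glycolysis and hypoxia genes tested 7 fell, among them Hif1a by 0.66 and Gapdh by 0.58 on the log2 scale, and none rose, with a median of -0.47, and over the 15 alternatives 1 to 9 fell. None of 44 oxidative phosphorylation genes passed. Among 14 genes of IL-2 and STAT5 signalling, the anti-apoptotic Bcl2l1 (-1.38 ± 0.18), Il2ra and the feedback inhibitors Cish (-0.98 ± 0.16) and Socs2 (-1.38 ± 0.24) fell, while Stat5b and Bcl2 rose. Of 20 early response and heat shock genes that digestion of tissue can induce, 4 rose and none fell: Fosb by 0.99, Btg2 by 0.85, Fos by 0.76 and Junb by 0.40 on the log2 scale. Mitochondrially encoded genes were higher too, 11 of 13, with a median log2 fold change of 0.49. The median mitochondrial share was 2.41%, 2.56%, 2.31% and 2.03% in the Ccr8- Tnfrsf9- Treg cells of the anti-PD-1, combination, PBS 1 and PBS 2 libraries, against 1.61%, 1.79%, 1.78% and 1.52% in the Ccr8 or Tnfrsf9 Treg cells. It was higher in every library. The part of cell quality and handling in the gene differences was not tested.

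The genes with the largest changes in this comparison lay partly outside the lists. Among the higher ones were Ehd3 (2.95 ± 0.58), an endosomal trafficking protein, St8sia6 (2.76 ± 0.55), a sialyltransferase, Kitl (2.17 ± 0.43), the ligand of the receptor Kit, and Lrig1 (2.13 ± 0.19), a membrane protein that restrains growth factor receptors. Among the lower ones were Kirrel3 (-3.39 ± 0.56), an adhesion molecule, Gcnt1 (-3.19 ± 0.61), which makes core 2 O-glycans on activated T cells, and Cd63 (-2.99 ± 0.48), a tetraspanin of secretory granules. Several of these rest on few UMIs: Ehd3 had 2, 8, 2 and 10 UMIs and Kirrel3 0, 4, 0 and 0 UMIs in the Ccr8- Tnfrsf9- Treg cells of the anti-PD-1, combination, PBS 1 and PBS 2 libraries. The 40 UMIs of Kitl in the combination library all came from 1 cell. All 7 genes kept their side in each of the 4 libraries, but these libraries also picked them, so this is no separate evidence. Of 17 homing receptors tested 4 rose (Itgb1, S1pr1, Itga4 and Ccr4) and 2 fell, with a median of 0.24. Itgb1 rose by 1.39 ± 0.13 and Itga4 by 1.17 ± 0.19, the chains of the integrin VLA-4 (edgeR adjusted p = 1.8e-07 and 0.000258). Against conventional CD4 T cells both were lower, Itgb1 with a log2 fold change of -0.94 ± 0.13 and Itga4 past the threshold as well (edgeR adjusted p = 3.78e-05 and 0.000172). Of the markers listed for other lineages, Ighm of B cells and Pecam1 of endothelium passed as well (edgeR adjusted p = 0.000128 and 0.00829), Pecam1 with a change of 1.03 ± 0.22. The summed level of 6 B cell markers was 294, 301, 425 and 239 CPM in the Ccr8- Tnfrsf9- Treg cells of the anti-PD-1, combination, PBS 1 and PBS 2 libraries, against 197, 160, 195 and 173 CPM in the Ccr8 or Tnfrsf9 Treg cells. Ighm is among the 6 and made up most of the sum in both gates, with 59, 78, 61 and 27 UMIs in the Ccr8- Tnfrsf9- Treg cells. The sum is therefore not separate from the Ighm call. Of the 6 markers 2 were tested, and Ighm alone passed. Ighm was also higher than in conventional CD4 T cells, by 2.39 ± 0.19 on the log2 scale (edgeR adjusted p = 2.35e-08). In the Ccr8 or Tnfrsf9 Treg cells it had 343, 384, 317 and 293 UMIs in 498, 453, 303 and 305 cells. Conventional cells held 33, 99, 68 and 51 UMIs in 199, 281, 223 and 222 cells of the same libraries. The source of the Ighm UMIs was not tested. Among the named genes, Odc1 shares 26.0%, Tigit 14.4%, Il7r 14.1% and Cd63 10.4% of the stretches near the transcript's end with another gene, so their counts are uncertain.

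**Figure D4:**
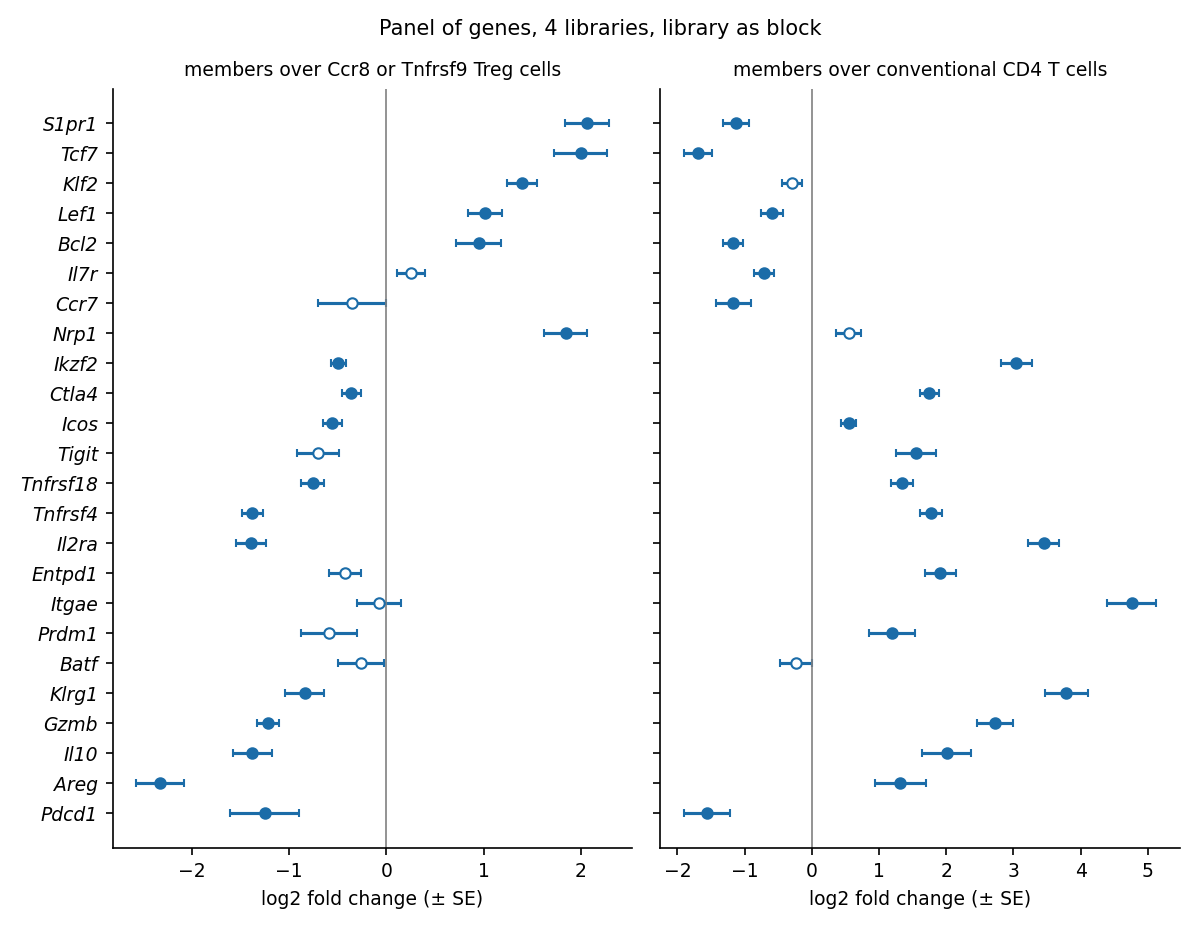
Log2 fold changes (horizontal axis) of 24 panel genes in Ccr8- Tnfrsf9- Treg cells over Treg cells with Ccr8 or Tnfrsf9 (left) and over conventional CD4 T cells (right); bars are SE, filled points passed an edgeR adjusted p of 0.05 and open points did not. S1pr1, Tcf7, Lef1 and Bcl2 lie above 0 on the left and below 0 on the right, while Il2ra, Ikzf2, Tnfrsf4, Gzmb and Il10 lie below 0 on the left and above 0 on the right.

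Against conventional CD4 T cells, most tested Treg identity and effector genes were higher, and more resting genes fell than rose. Of 6181 genes tested, 571 (9.24%) passed, 293 higher (4.74%) and 278 lower (4.5%) in the Ccr8- Tnfrsf9- Treg cells. Of 17 tested Treg identity genes 14 rose and none fell, with a median of 1.55 against -0.01 over all genes. Itgae, the integrin chain that binds E-cadherin, stood at 70.0, 85.6, 187 and 239 CPM in the Ccr8- Tnfrsf9- Treg cells of the anti-PD-1, combination, PBS 1 and PBS 2 libraries, against 3.76, 4.91, 7.66 and 2.98 CPM in conventional cells. Its log2 fold change was 4.76 ± 0.36 (edgeR adjusted p = 2.04e-08). Lrrc32, which encodes the TGF-beta anchor GARP, was higher by 4.27 ± 0.43 on the log2 scale, Il2ra by 3.45 ± 0.23, Ikzf2 by 3.04 ± 0.23, Ctla4 by 1.75 ± 0.14 and Tnfrsf4 by 1.77 ± 0.16. Of 26 effector Treg genes 15 rose and none fell, among them Gzmb (2.73 ± 0.27), Il10 (2.01 ± 0.36) and the chemokine receptor Ccr2 (2.41 ± 0.18).

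Of 21 resting genes tested 11 fell and 1 rose relative to conventional cells, with a median of -0.63. Tcf7 stood at 65.4, 127, 93.7 and 59.9 CPM in the Ccr8- Tnfrsf9- Treg cells of the anti-PD-1, combination, PBS 1 and PBS 2 libraries, against 251, 258, 305 and 334 CPM in conventional cells. No values overlapped, and its log2 fold change was -1.70 ± 0.21 (edgeR adjusted p = 8.12e-06). S1pr1 changed by -1.13 ± 0.19, Bach2 by -1.36 ± 0.12, Bcl2 by -1.17 ± 0.15, Il7r by -0.71 ± 0.15 and Ccr7 by -1.17 ± 0.26. Klf2, at 201, 487, 391 and 308 CPM in the Ccr8- Tnfrsf9- Treg cells, against 331, 480, 391 and 404 CPM in conventional cells, changed by -0.29 ± 0.15 and did not pass (edgeR adjusted p = 0.299). Interferon-gamma response genes rose in 9 of 26 cases, among them Iigp1 (1.47 ± 0.22) and Gbp7 (1.07 ± 0.19), which encode interferon-induced GTPases, and none fell. Tnfsf11, which encodes the cytokine RANKL, changed by -2.64 ± 0.39 and Ifng, which encodes interferon-gamma, by -1.70 ± 0.26. Gzmk, granzyme K, changed by -2.76 ± 0.68 and had 0, 2, 1 and 0 UMIs in the Ccr8- Tnfrsf9- Treg cells of the anti-PD-1, combination, PBS 1 and PBS 2 libraries. The myeloid genes Fcer1g (1.58 ± 0.37) and Tyrobp (1.23 ± 0.33) also passed. The summed level of 14 macrophage and monocyte markers was 294, 499, 154 and 248 CPM in the Ccr8- Tnfrsf9- Treg cells and 125, 217, 173 and 133 CPM in the conventional cells of the anti-PD-1, combination, PBS 1 and PBS 2 libraries, and its part in these calls was not tested. Without the anti-PD-1 library 366 genes were called, and 355 with Foxp3 required at 2 UMIs or more.

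Within the population, resting and effector transcripts were unevenly spread over cells. Of the 162 cells, 64 held an S1pr1 UMI and 98 did not. Gzmb was detected in 16 of the 64 cells with S1pr1 and in 67 of the 98 without it (68.4%), although cells with S1pr1 were deeper, with a mean of 5717 UMIs against 4238. Il2ra was detected in 39.1% of the cells with S1pr1 and in 68.4% of those without, and Klf2 in 71.9% of the cells with S1pr1 and in 40.8% of those without. In the Ccr8 or Tnfrsf9 Treg cells, Gzmb was detected in 69.4% of the 206 cells with S1pr1 and in 84.0% of the others. For Klf2 the pooled split was smaller, with Gzmb in 46.5% of the cells of the population with Klf2 and 56.6% of those without. It ran the other way in the anti-PD-1 library, with 47.8% of the cells with Klf2 and 40.5% of those without. Among C1q macrophages, Gzmb was detected in 9.75%, S1pr1 in 5.13%, Il2ra in 5.26% and Klf2 in 61.5%. These are shares over cells of 4 libraries, given as a description with no test.

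Anti-PD-1 was compared with PBS over the sums of the population, with all 4 libraries in the fit and 1 residual degree of freedom from the PBS pair. The biological coefficient of variation was 22.9%, and each treated library was assumed to vary as the PBS pair does. The median prior degrees of freedom in the treatment comparisons were infinite. For most genes the test thus used a quasi-likelihood spread shared over genes and not the gene's own. Of 4800 genes tested 2 (0.0417%) passed, 1 higher (0.0208%) and 1 lower (0.0208%). AW554918 was lower, with 3 UMIs in the anti-PD-1 library against 22 in PBS 1 and 32 in PBS 2, a log2 fold change of -3.61 ± 0.75 (edgeR adjusted p = 0.00812). The combination library held 35 UMIs of it. Gzma, granzyme A, was higher by 2.35 ± 0.54 (edgeR adjusted p = 0.0287), with 52 UMIs in the anti-PD-1 library against 10 in PBS 1 and 5 in PBS 2. These came from 6 cells, and 1 of them held 29. DESeq2 called no gene, and 183 genes had an unadjusted p under 0.05 with edgeR.

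The combination against PBS gave 29 genes of 4800 (0.604%), 26 higher (0.542%) and 3 lower (0.0625%), and most higher calls rested on single cells. In 25 of the 26 higher genes more than 50% of the UMIs of the combination library came from 1 cell, and in Hspa1a, a heat shock protein, exactly 50% did. S100a9, a neutrophil protein, had 89 UMIs in the combination library, all in 1 cell, against 0 in PBS 1 and 1 in PBS 2. Ifitm1, an interferon-induced membrane protein, had 100 UMIs in 4 cells with 91 in 1 of them, against 1 in PBS 1 and 0 in PBS 2. Among the listed genes, S100a9, S100a8 and Il1r2 of the neutrophil markers and Hspa1a and Hsph1 of the handling genes were called. The 6 neutrophil markers summed to 659 CPM in the combination library, against 33.1 in PBS 1 and 17.1 in PBS 2, and to 28.0 in the anti-PD-1 library. The anti-PD-1 and the combination library are set against the same PBS pair. With the cell richest in each gene left out of every library, a setting chosen after seeing the data, 1 gene was called, and DESeq2 called none (207 genes had an unadjusted p under 0.05 with edgeR).

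Calls that were spread over cells were few. Hip1, an endocytic adaptor, had 21 UMIs in 10 cells of the combination library, against 60 in 13 cells of PBS 1 and 42 in 13 cells of PBS 2, a log2 fold change of -2.13 ± 0.50 (edgeR adjusted p = 0.00621). Nrip1, a nuclear receptor corepressor, had 58 UMIs in 25 cells of the combination library, against 131 in 24 cells of PBS 1 and 67 in 15 cells of PBS 2, a change of -1.60 ± 0.42 (edgeR adjusted p = 0.0272). The third lower gene, Bank1, had 30 of its PBS 1 UMIs in 1 cell. Between the treated libraries, which compares those libraries and not the conditions, 14 genes (0.292%) passed, all higher in the combination, and 12 of them had over 50% of their UMIs in 1 cell. Pfn1, the actin-binding protein profilin, was spread, with 273 UMIs in 44 cells of the combination library against 60 in 36 cells of the anti-PD-1 library (1.76 ± 0.43, edgeR adjusted p = 0.0205). PBS 1 held 146 UMIs of it in 31 cells and PBS 2 held 74 in 16 cells, and Pfn1 was not called for the combination over PBS. The sums behind these counts were 214166 UMIs in the anti-PD-1, 268729 in the combination, 181367 in the PBS 1 and 116918 in the PBS 2 library. Relative to its sum, the anti-PD-1 library held the least Pfn1.

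**Figure D5:**
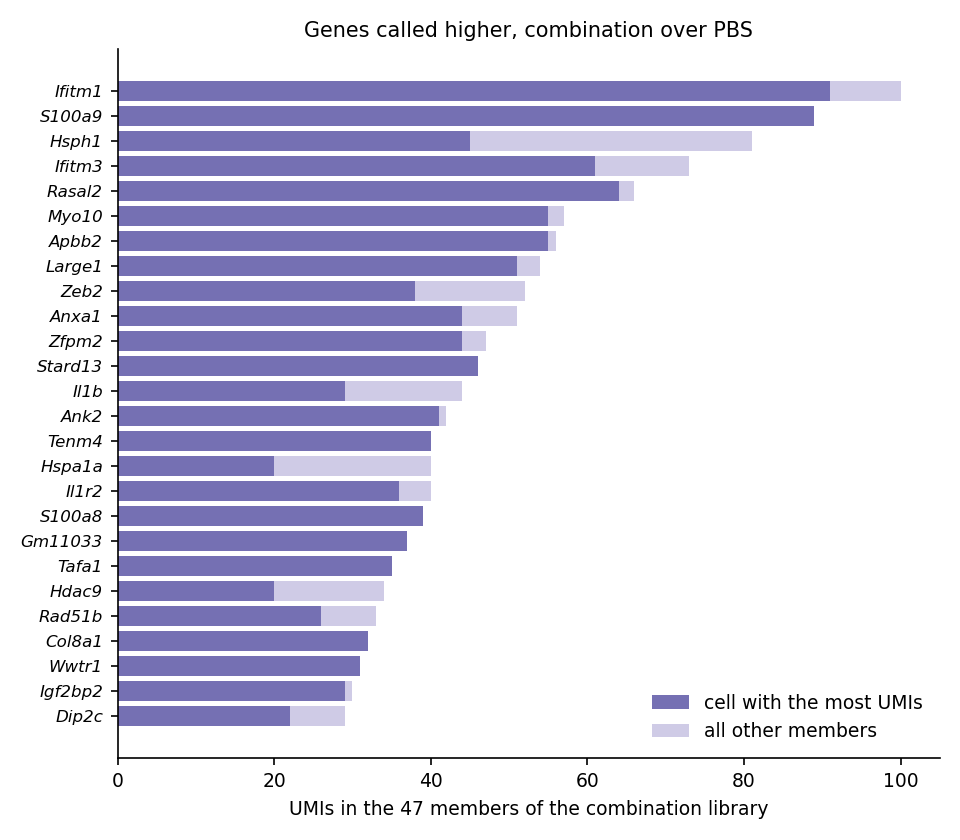
UMIs in the 47 Ccr8- Tnfrsf9- Treg cells of the combination library (horizontal axis) for the 26 genes called higher than in PBS; the dark part of a bar is the cell with the most UMIs of that gene and the light part all other cells. In 25 of the 26 bars the dark part is over 50% of the length, and in Hspa1a it is 50%.

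No resting, identity or effector gene passed the threshold in either treatment comparison. In the comparison of anti-PD-1 with PBS, 0 of 17 Treg identity genes, 0 of 20 resting genes and 0 of 25 effector Treg genes passed, with medians of 0.16, -0.37 and 0.14 against -0.015 over all genes. In the comparison of the combination with PBS the counts were again 0 of 17, 0 of 20 and 0 of 25, with medians of -0.47, 0.01 and -0.42 against -0.03 over all genes. Il10, at 154, 44.7, 160 and 180 CPM in the anti-PD-1, combination, PBS 1 and PBS 2 libraries, was lowest in the combination library, with a log2 fold change against PBS of -1.91 ± 0.58 (edgeR adjusted p = 0.143). Prdm1, which encodes the effector regulator Blimp-1, stood at 46.7, 29.8, 127 and 85.5 CPM in the anti-PD-1, combination, PBS 1 and PBS 2 libraries, and Itgae at 70.0, 85.6, 187 and 239 CPM. Both genes were lower in each treated library than in each PBS library, and neither passed. Prdm1 rests on 10, 8, 23 and 10 UMIs in these libraries, with up to 9 in 1 cell, and Itgae on 15, 23, 34 and 28. The order of the libraries is a description with no test. Prdm1 differed from PBS by -1.12 ± 0.68 under anti-PD-1 and by -1.85 ± 0.70 under the combination (edgeR adjusted p = 1 and 0.539). Itgae differed by -1.49 ± 0.55 under anti-PD-1 and by -1.30 ± 0.51 under the combination (edgeR adjusted p = 0.82 and 0.625). The unadjusted p of Il10 under the combination was 0.00101, that of Itgae was 0.00649 under anti-PD-1 and 0.0112 under the combination, and that of Prdm1 was 0.0999 under anti-PD-1 and 0.00853 under the combination (edgeR), before adjustment over 4800 genes. The smallest change called in either comparison with PBS was that of Nrip1.

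Tnfrsf25, the receptor of TL1A, was near the detection limit in the population. It had 4 UMIs in 60 cells of the anti-PD-1 library, 3 in 47 cells of the combination library and 0 in the 33 cells of PBS 1 and the 22 of PBS 2. A count of 0 allows up to 9.09% of cells with a UMI in PBS 1 and up to 13.6% in PBS 2, so no difference between groups was detectable at this depth. Levels in the Ccr8 or Tnfrsf9 Treg cells were 3.65, 4.38, 4.63 and 5.18 CPM in the anti-PD-1, combination, PBS 1 and PBS 2 libraries, and in conventional CD4 T cells 11.3, 8.41, 14.5 and 10.4 CPM. Pdcd1, which encodes PD-1, had 7, 7, 2 and 1 UMIs in the population in the same libraries.

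Whether a treatment difference was unequal in the Treg gates was tested with a term for gate by treatment over all 8 sums. This fit had 1 residual degree of freedom, from the PBS pair, so the treated libraries added no replication. For anti-PD-1 no gene of 8468 passed (0%), with edgeR or with DESeq2, and 279 genes had an unadjusted p under 0.05 with edgeR and 34 with DESeq2. For the combination 6 genes passed (0.0709%): Ifitm1, Ifitm3, Il1b, Dip2c, Gm11033 and Hsph1. In all 6 more than 50% of the UMIs that the combination library held in the population came from 1 cell. Il2ra and Il10 had gate by treatment terms of -0.92 ± 0.29 and -1.65 ± 0.52 for the combination and did not pass (edgeR adjusted p = 0.563 and 0.523).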

How the data were processed

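The deposited values are UMI counts per gene and barcode for 32285 features in 4 libraries, 1 matrix per library. Per the submitters' processing notes, the authors used Cell Ranger 3.0.2 and the mm10 build, but version 7.1.0 stands in each matrix per the file headers. These versions differ in whether intronic reads are counted by default, and neither source states the setting, so a UMI value may or may not include intronic reads. PCR duplicates were collapsed by UMI, so intervals cover counting error only.

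Barcodes were gated on the raw counts as described in the report. The members and the 24 gene lists were chosen with earlier results of these data known; 348 of the 350 list genes were in the files. UMIs were summed per library and gate, and levels are given as CPM, counts per 1000000 UMIs of that sum. Sums were tested with edgeR 4.0.16 (quasi-likelihood with robust fit, TMM factors, filterByExpr, Benjamini-Hochberg adjustment at 0.05 over all genes tested, R 4.3.3, limma 3.58.1), with the library as block between gates. An SE was taken from the F statistic. Treatment comparisons and the gate by treatment test each had 1 residual degree of freedom, from the PBS pair. Genes of the gating rule were left out of tests. Some panel and list genes, and a comparison of cells within the population, are not reported here. DESeq2 1.42.0 was an alternative, as were other size factors, no filter, cells thinned to 2000 UMIs, Foxp3 of at least 2 UMIs, no C1q or Lyz2 UMI, and leaving out shared barcodes, each library, or the cells with the highest Scrublet scores (0.8% per 1000 barcodes; scanpy 1.11.5). The scripts were tested on simulated data.

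Named genes are a chosen panel, list genes past the threshold (at most 10 per direction) and the 8 largest log2 fold changes per direction with at least 30 CPM in a group; the text gives those of clearest known role, and Hip1, Nrip1, Bank1 and Pfn1 were also picked for how their UMIs spread over cells. Positions are from GENCODE M21 on GRCm38. A count is called uncertain where another gene holds over 10% of a transcript's 31-base stretches, taken from its last 500 bases.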

Additional observations from a re-analysis of the deposited data

Results flagged for a closer look

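The difference between the combination and PBS was unequal in the Ccr8- Tnfrsf9- and the Ccr8 or Tnfrsf9 Treg cells, by the gate by treatment term of edgeR, for 6 genes. On the log2 scale the term was 7.80 for Ifitm1 and 3.63 for Ifitm3, membrane proteins induced by interferon, 10.9 for the cytokine Il1b, 5.44 for Dip2c, 10.8 for Gm11033 and 2.47 for the heat shock protein Hsph1 (adjusted p = 2.65e-08, 0.000587, 0.00158, 0.00901, 0.0134 and 0.0445). The combination library held 100 UMIs of Ifitm1 in its Ccr8- Tnfrsf9- Treg cells, with 91 in 1 cell, 73 of Ifitm3 with 61 in 1 cell, and 44 of Il1b with 29 in 1 cell. It held 29 UMIs of Dip2c with 22 in 1 cell, 37 of Gm11033 all in 1 cell, and 81 of Hsph1 with 45 in 1 cell. Ifitm1 shares 26.6%, Ifitm3 28.3% and Gm11033 24.0% of the stretches near the transcript's end with another gene, so their counts are uncertain. No gene passed this test for anti-PD-1.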

How the results depend on the processing

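The count of 423 genes between the Treg gates was 131 with cells thinned and gated again, 121 with Foxp3 of at least 2 UMIs, 268 without cells holding markers of other lineages (chosen after seeing the data) and 217 to 375 with a library left out. The 571 genes against conventional cells became 355 with Foxp3 of at least 2 and 366 to 603 with a library left out. With no replicate block (the library as block removed), these counts were 284 and 435. Both share differences changed sign when cells were thinned and gated again (-2.68 and -2.19 points), and that of the combination also without C1q or Lyz2 UMIs (-1.03). Without the cells of highest doublet score the differences were 2.58 and 1.66 points, and 462 genes between the Treg gates, 586 against conventional cells, 26 under the combination and 14 between the treated libraries were called. Without PBS 1 or PBS 2 the share differences ran from 0.93 to 4.02 points for anti-PD-1 and from -0.42 to 2.67 for the combination.

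The 2 genes under anti-PD-1 became 4 with cells thinned, 1 without doublets, with Foxp3 of at least 2, without C1q or Lyz2 UMIs or without each gene's richest cell, and 0 with DESeq2, without a filter, with regating, with sums thinned and without cells of other markers. The 29 genes under the combination became 0 with DESeq2, 2 with cells thinned, 6 with regating or without C1q or Lyz2 UMIs, 13 with Foxp3 of at least 2, 8 with sums thinned, 1 without each gene's richest cell and 12 without each library's deepest cell. The 14 between the treated libraries became 0 with DESeq2 and without the richest cell, 4 with cells thinned, 3 with regating or Foxp3 of at least 2, 2 without C1q or Lyz2 UMIs, 9 without cells of other markers, and 6 without the deepest cell or with sums thinned. The single-cell settings were chosen after seeing the data. The gate by treatment term gave 3, 1, 1, 4 and 1 genes for anti-PD-1 (no filter, cells thinned, Foxp3 of at least 2, no C1q or Lyz2 UMIs, cells of other markers left out) against 0. For the combination it gave 3 with the other size factors, 1 with DESeq2, 17 without a filter or with Foxp3 of at least 2, 0 with either thinning, 23 without doublets and 11 without cells of other markers, against 6. The causes were not tested. No paired analysis was possible because the treatment groups share fewer than 2 replicate numbers, and without either PBS library they had no residual degrees of freedom.

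With cells thinned and gated again, Il1r2 changed by -0.88 under the combination, Nrp1 by -0.86 against conventional cells (adjusted p = 0.0312) and Dip2c by -1.52 in the gate by treatment term. With Foxp3 of at least 2, Bcl2 changed by -0.35 between the Treg gates. Of the named genes reported and called, 12 of 41 between the Treg gates and 34 of 46 against conventional cells passed under every alternative in which they were tested. None of the 2 and 14 under the treatments did. Low counts took some genes out of some alternatives. At 22 to 60 cells per library, the UMI sums limit what could be detected.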
